A study of Mus musculus with 10 samples.

Results

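The transcription of every protein-coding gene by RNA polymerase II (Pol II) needs a set of shared proteins, and the 78 rows of the expression table that name them are described here. They were the rows whose gene name began with Polr2 (12 rows), with Med and a digit (30 rows), with Taf and a digit (20 rows) or with Gtf2 (16 rows), among 21437 rows in all. The rule reads names and no measured value, though it was set with earlier results of these data known. Pol II is built from many subunits, some of which are also part of RNA polymerases I and III. TFIID, made of the TATA-binding protein and its associated factors (TAFs), recognizes core promoters, and several TAFs also belong to the coactivator SAGA. TFIIA and TFIIB join TFIID at the promoter, TFIIF accompanies the polymerase, TFIIE recruits TFIIH, and TFIIH opens the DNA. Mediator carries signals from bound activators to the polymerase through head, middle and tail modules, with a kinase module that comes and goes. The mature oocyte makes almost no RNA, and the mouse embryo starts transcription of its own genome around the 1-cell and 2-cell stages, with mRNAs and proteins inherited from the oocyte at hand.

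RNA-seq was done on MII oocytes, control middle 2-cell embryos, control early 4-cell embryos, and both embryo stages after Ago2 kd, with 2 libraries in each of the 5 groups. The labels name the ICR strain, 7-week-old females, and superovulation with 6.5 IU of PMSG and 5 IU of hCG for all libraries. The Methods take oocytes from ICR females and embryos from matings of F1 mice, so strain and stage cannot be told apart between oocytes and embryos. For Ago2 kd, zygotes were injected with siRNA against Ago2 together with AGO2 antibodies, and a scrambled siRNA is named as the negative control. Values are FPKM, fragments scaled to exon length and to the mapped fragments of the library, so levels are per length; the number of reads behind each value is unknown. Fewer cells and less RNA per cell cannot be told apart in such libraries.

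The FPKM of all genes summed to between 178681 and 458874 per library, with both sums of the MII oocytes above all others. The rows described here took between 0.913% and 1.46% of these sums. Pearson's r of log2(FPKM + 1) between the 2 libraries of a group, over genes, lay between 0.75 and 0.913, and was lowest for 4-cell Ago2 kd embryos. Mitochondrial genes took 2.02% and 2.23% of the sum in oocytes and 5.34% and 4.87% in 2-cell controls against 3.04% and 4.2% after Ago2 kd. At the 4-cell stage they took 10.8% and 5.22% in controls against 11.1% and 13.0% after Ago2 kd, and the part of these shares in the results was not tested. Of the genes above 10 FPKM in 1 library of a group, the share below 0.1 FPKM in its partner ran from 1.61% to 5.81% in 9 libraries. In replicate 1 of the 4-cell Ago2 kd embryos this share was 14.6% (416 of 2845 genes), and Gtf2a1, Gtf2f2 and Polr2h were among them. Gapdh, a glycolytic enzyme that every cell uses, did not exceed 0.167 FPKM in any library, so a 0 is given below as a listed value and not as absence of the mRNA. The sum of 8 oocyte markers was 8078 and 9917 FPKM in MII oocytes and between 4.56 and 10.8 FPKM in control 4-cell embryos. The 5 markers of the 2-cell embryo with a row summed to 597 and 679 FPKM in control 2-cell embryos, to 89.6 and 115 FPKM in oocytes, and to between 2.47 and 28.9 FPKM in 4-cell embryos. Among them Tcstv1 alone was higher in oocytes, at 71.6 and 81.5 FPKM, than in control 2-cell embryos, at 56.6 and 62.1 FPKM. Of 8 cumulus cell markers, the single one with a row, Foxl2, was listed at 0 in all libraries, and the 4 blood markers with a row summed to at most 7.83 FPKM.

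Of the 78 rows, 63 reached 1 FPKM in at least 2 libraries and entered the model of 8726 genes. They were 10 Polr2, 22 Med, 16 Taf and 15 Gtf2 rows. The 15 rows that did not were Polr2a, Polr2k-ps, Med9os, Med12, Med13, Med13l, Med16, Med18, Med24, Med25, Taf1c, Taf4a (Taf4 in the annotation), Taf5l, Taf7l and Gtf2ird2. Polr2a, on chromosome 11 at 69733997 to 69758637, encodes the largest Pol II subunit, which holds the active site together with Polr2b. Its row lay between 0.0255 and 0.158 FPKM over the 10 libraries and was not tested. The kinase module rows Med12, Med13 and Med13l also stayed low, with highest values of 1.27, 1.36 and 0.589 FPKM. Polr2c, Med12l, Taf2, Taf4b and Tbpl2 were not analysed here.

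**Figure D1:**
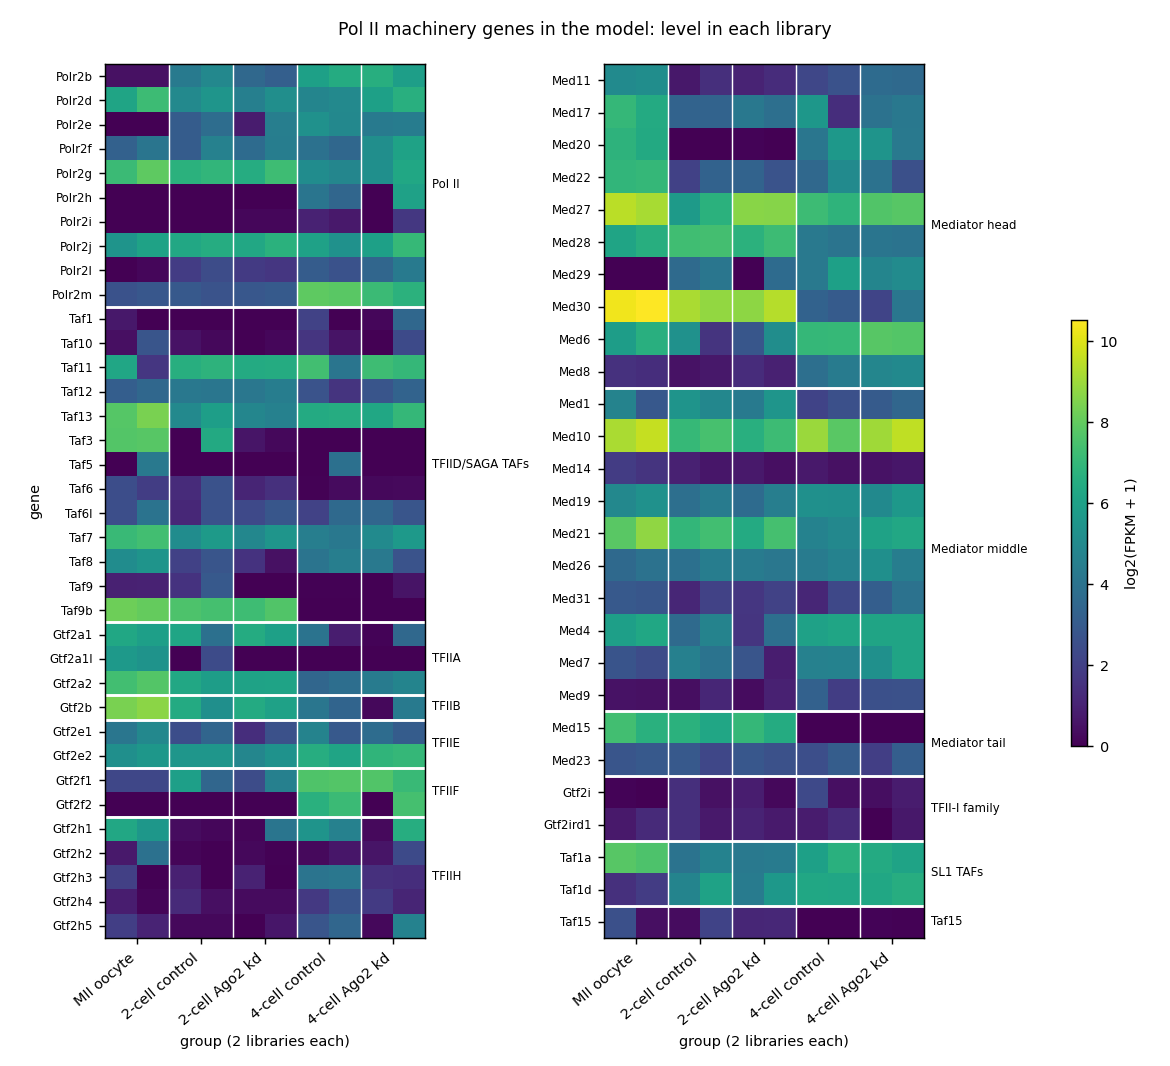
Level of the 63 genes in the model in each of the 10 libraries, as log2(FPKM + 1) in colour, with genes in rows grouped by complex and libraries in columns grouped by stage and treatment. Med30, Med10 and Med27 have the brightest rows in MII oocytes, Med15 and Taf9b are at 0 in all 4-cell libraries, and Gtf2f2 and Polr2h are listed at 0 in every oocyte and 2-cell library.

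From MII oocytes to control 2-cell embryos, more of these mRNAs fell than rose, except with libraries scaled to the same FPKM total. Differences were tested with limma on log2(FPKM + 1), and a change was called at a Benjamini-Hochberg adjusted p below 0.05 over all 8726 genes. 3 of 63 rose (4.76%; 6.54% of all genes tested did) and 11 fell (17.5%; 14.2% of all genes tested did). Their median change was -0.73 on the log2 scale, against -0.06 over all genes tested. The 2 sets differed in level, with median log2(FPKM + 1) in oocytes of 3.60 and 4.01 against 1.75 and 1.59. The part of this difference in the medians of change was not tested. The 2-cell controls lay wholly under the oocytes for 29 of the 63, as they did for 37.0% of all genes tested. Both lay above for 14, as they did for 25% of all genes. At an unadjusted p below 0.05, 9 were higher (11.0% of all genes) and 18 lower (21.6% of all genes). These directions depended on how libraries were scaled to each other. Scaling each library to the same FPKM total moved the median of all genes from -0.06 to 0.38 and gave 11 rises and 6 falls with a median of 0.0, and quantile normalization gave 6 rises and 7 falls with a median of -0.10. Over all genes tested, 571 rises and 1240 falls became 1054 and 590 with the same total. By quantiles they became 707 and 782. 9 of the 14 calls, 3 rises and 6 falls, were kept under all 3 scalings tried.

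Among the 10 Pol II subunits in the model, Polr2b and Polr2l rose and none fell, beside 6.54% and 14.2% of all genes tested. Polr2d was called lower with a replicate block. Polr2e was called higher with a pseudocount of 0.1, with libraries scaled to the same total, in the fit of only these groups and without either 2-cell Ago2 kd library, and Polr2j with the same total or by quantiles. Polr2b encodes the second-largest subunit and lies on chromosome 5 at 77310147 to 77349324. Its level was 0.370 and 0.408 FPKM in MII oocytes, 18.7 and 29.6 FPKM in control 2-cell embryos and 62.4 and 88.5 FPKM in control 4-cell embryos. Each stage lay wholly above the one before. The fitted rise to the 2-cell stage was 4.14 (SE 0.42, adjusted p = 0.00102), and it held under all 19 alternatives. Polr2l, a small subunit shared with RNA polymerases I and III, went from 0 and 0.141 FPKM to 2.65 and 4.44 FPKM, a rise of 2.06 (SE 0.44, adjusted p = 0.0178). It lost its call without either oocyte library or without replicate 2 of the 2-cell controls, with adjusted p-values up to 0.0905. Polr2e, another subunit shared by the 3 polymerases, was listed at 0 in both oocyte libraries and stood at 7.44 and 12.5 FPKM in 2-cell embryos (adjusted p = 0.067). Polr2d and Polr2g form the stalk of the enzyme through which RNA leaves. Polr2g stood at 143 and 243 FPKM in MII oocytes against 105 and 121 FPKM in 2-cell embryos (adjusted p = 0.348), and Polr2d at 70.4 and 147 FPKM against 30.3 and 44.3 FPKM (adjusted p = 0.0757). Polr2j, which pairs with another core subunit early in assembly, lay between 39.5 and 134 FPKM over all 10 libraries and was called in no comparison, though by quantiles it was called lower at the 4-cell stage. Polr2h was listed at 0 in all oocyte and 2-cell libraries, and Polr2i at 0 in oocytes and 2-cell controls. As the reads' strand is not stated, reads of Polr2b cannot be told from those of Igfbp7, which shares exons with it on the opposite strand.

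Of the 22 Mediator genes in the model, 5 fell at this step and none rose, beside 14.2% and 6.54% of all genes tested. However, Med28 rose under each of the 3 scalings and Med1 with libraries scaled to the same total. Med29 and Med7 were called higher without either 2-cell Ago2 kd library, and Med29 also with a pseudocount of 0.1, with a replicate block and in the fit of only these groups. 4 of the 5 belong to the head module, which contacts the polymerase. Med20, on chromosome 17 at 47611582 to 47624418, had 109.8 and 83.4 FPKM in MII oocytes against 0 and 0.0277 FPKM in 2-cell controls. Both 2-cell libraries were listed at or near 0, and the fitted change was -6.58 (SE 0.61, adjusted p = 0.000688). Med11 went from 32.1 and 34.9 to 0.610 and 1.64 FPKM, a change of -4.06 (SE 0.40, adjusted p = 0.000872). Med22 went from 122 and 128 to 3.12 and 9.06 FPKM, a change of -4.29 (SE 0.73, adjusted p = 0.00698). Neither pair of groups overlapped. Med27, at 694 and 575 FPKM in MII oocytes against 52.3 and 104 FPKM in 2-cell controls, changed by -3.08 (SE 0.35, adjusted p = 0.00144). These 4 falls held under all 19 alternatives. Med10, a subunit of the middle module, fell from 593 and 781 to 133 and 174 FPKM (-2.16, SE 0.42, adjusted p = 0.0122), but not when libraries were scaled to the same total or by quantiles, nor without either oocyte library or without replicate 1 of the 2-cell controls (adjusted p up to 0.132). The median change of the 10 head genes was -2.94 and that of the 10 middle genes -0.98. Med20 shares exons on its own strand with Gm20517 and Med27 shares exons with the antisense gene Gm13402, so their values may hold reads of those genes.

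Of 13 TAFs of TFIID and SAGA, Taf8, Taf13 and Taf7 fell, 10 were not called, and none rose. Of all genes tested, 14.2% fell and 6.54% rose. However, Taf9 rose with libraries scaled to the same total or median and Taf12 with the same total or by quantiles. Taf8, needed to bring Taf10 into the complex, had 33.4 and 42.5 FPKM in MII oocytes against 3.07 and 5.79 FPKM in 2-cell controls, a change of -2.88 (SE 0.65, adjusted p = 0.021). Taf13, the histone-fold partner of Taf11, had 216 and 339 FPKM against 30.2 and 58.7 FPKM, a change of -2.65 (SE 0.43, adjusted p = 0.00605). Taf7, which binds Taf1, had 141 and 162 FPKM against 34.2 and 52.8 FPKM, a change of -1.80 (SE 0.40, adjusted p = 0.0201). Oocytes lay above 2-cell embryos for each of these genes. The fall of Taf13 held under each alternative except the fit of only these groups (adjusted p = 0.0527), whereas Taf8 was not called under any of the 3 scalings nor without any 1 of the 4 libraries compared (adjusted p up to 0.212). Taf7 was not called when libraries were scaled to the same total or by quantiles, nor without either oocyte library or replicate 1 of the 2-cell controls (adjusted p up to 0.244). Taf3, which binds methylated histone H3 at promoters, stood at 212 and 222 FPKM in oocytes and at 0 and 84.2 FPKM in the 2-cell controls. Those 2-cell replicates disagreed, and no change was called (adjusted p = 0.122).

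Among the 13 general factor genes, TFIIA to TFIIH, 2 fell and both belong to TFIIA, and none rose. Of all genes tested, 14.2% fell and 6.54% rose. However, Gtf2e2 and Gtf2f1 rose with libraries scaled to the same total. Gtf2a1l, the germ cell form of the large subunit, lies on chromosome 17 at 88668660 to 88715152. It had 51.3 and 42.1 FPKM in MII oocytes, 0 and 4.28 FPKM in 2-cell controls, and 0 FPKM in each 2-cell Ago2 kd and 4-cell library. Its fall was -4.37 (SE 0.71, adjusted p = 0.00602), and it was lost when libraries were scaled to the same total or only these groups were fitted (adjusted p up to 0.0808). Gtf2a2, the small subunit, went from 163 and 209 to 78.9 and 56.9 FPKM (-1.45, SE 0.32, adjusted p = 0.0193), a change lost under all 3 scalings, in the fit of only these groups, and without replicate 2 of the oocytes or of the 2-cell controls (adjusted p up to 0.728). Gtf2a1, the other form of the large subunit, stood at 75.7 and 60.4 FPKM against 71.5 and 13.7 FPKM (adjusted p = 0.704). Gtf2b, which bridges the promoter complex and the polymerase, stood at 344 and 411 FPKM in MII oocytes against 85.6 and 36.5 FPKM in 2-cell controls (adjusted p = 0.17). Gtf2h1, a core subunit of TFIIH, stood at 78.8 and 46.6 FPKM against 0.276 and 0.152 FPKM (adjusted p = 0.101). Both Gtf2b and Gtf2h1 passed the test without either 4-cell Ago2 kd library, as did Med30, and Gtf2h1 and Med30 also in the fit of only these groups.

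The rule for names also took in genes of other machines. Taf1a and Taf1d encode TAFs of SL1, the promoter factor of RNA polymerase I. Taf1a went from 223 and 189 FPKM in oocytes to 15.0 and 24.1 FPKM in 2-cell controls, a change of -3.37 (SE 0.37, adjusted p = 0.00136). Taf1d moved the other way, from 1.75 and 2.71 to 25.8 and 67.0 FPKM, a change of 3.74 (SE 0.58, adjusted p = 0.00502). Both calls held under all 19 alternatives. Taf1d hosts snoRNAs within its exons, so its value may hold their reads. The RNA-binding protein gene Taf15 and the TFII-I family genes Gtf2i and Gtf2ird1 stayed at or below 4.98 FPKM in all libraries and were not called in any comparison.

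**Figure D2:**
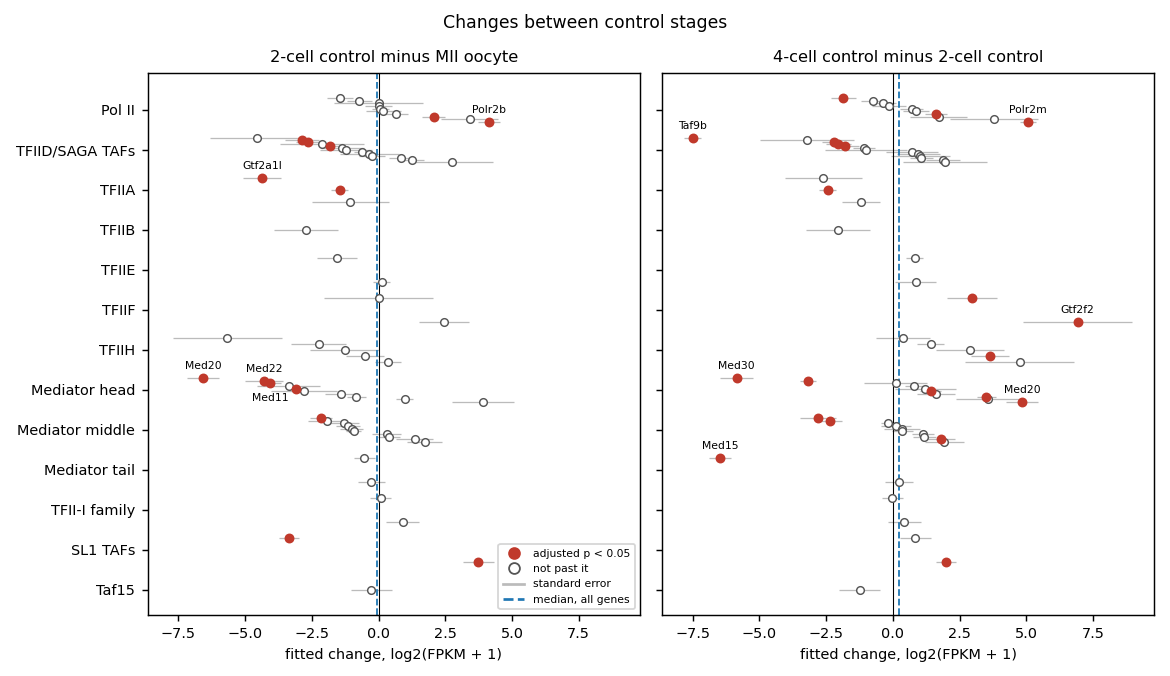
Fitted change of each of the 63 genes by complex, on the log2(FPKM + 1) scale with its standard error, between MII oocytes and control 2-cell embryos (left) and between control 2-cell and 4-cell embryos (right); filled points passed an adjusted p of 0.05 and the dashed line is the median of all genes tested. Called Mediator head genes lie only to the left of 0 in the first panel and on both sides in the second, where Taf9b has the lowest value and Gtf2f2 the highest.

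From the 2-cell to the 4-cell stage the calls went in both directions, in shares at or below those of all genes. 10 of 63 rose (15.9%; 21.1% of all genes tested did) and 11 fell (17.5%; 17.5% of all genes tested did). At an unadjusted p below 0.05, 18 were higher (26.0% of all genes) and 12 lower (20.9% of all genes). The median change was 0.72, against 0.24 over all genes tested. Here too the levels differed, with median log2(FPKM + 1) in 2-cell controls of 3.08 and 3.44 against 1.36 and 1.45, and the part of this was not tested. Both 4-cell libraries lay above both 2-cell libraries for 31 of the 63 (38.4% of all genes) and below for 16 (30.2% of all genes). Scaling to the same total, and likewise quantile normalization, left 6 rises, with 12 and 13 falls. Over all genes tested, 1841 rises and 1529 falls became 1660 and 1778 with the same total. By quantiles they became 1523 and 1677. 17 of the 21 calls, 6 rises and 11 falls, were kept under all 3 scalings, and 10 held under all 19 alternatives.

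Polr2m had the smallest p-value among the rises. Its product, Gdown1, binds Pol II tightly and makes it depend on Mediator. The gene lies on chromosome 9 at 71478437 to 71485935. It stood at 5.31 and 6.20 FPKM in MII oocytes, 6.75 and 5.46 FPKM in 2-cell controls and 244 and 226 FPKM in 4-cell controls. The first 2 stages overlapped and the 4-cell controls lay far above them, with a fitted rise of 5.06 (SE 0.31, adjusted p = 8.61e-05), held under all 19 alternatives. Polr2b rose once more, from 18.7 and 29.6 to 62.4 and 88.5 FPKM (1.62, SE 0.42, adjusted p = 0.0219), but this call was lost under all 3 scalings, in the fit of only these groups, and without replicate 1 of the 2-cell or replicate 2 of the 4-cell controls (adjusted p up to 0.126). Polr2g, the stalk subunit, fell from 105 and 121 to 33.9 and 27.2 FPKM (-1.86, SE 0.46, adjusted p = 0.019), and lost the call without any 1 of the 4 libraries compared (adjusted p up to 0.0838). Polr2h and Polr2i, listed at 0 in the 2-cell controls, stood at 16.2 and 10.2 FPKM (adjusted p = 0.117) and 1.02 and 0.658 FPKM (adjusted p = 0.214) in 4-cell controls. Polr2e stood at 39.8 and 29.3 FPKM (adjusted p = 0.252). Polr2h and Polr2i, like Gtf2h1 and Gtf2h5, were called in the fit of only these groups and without either 4-cell Ago2 kd library, and Polr2e without either 2-cell Ago2 kd library.

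Taf9b had the smallest p-value among the falls. Taf9b and Taf9 encode interchangeable histone-fold subunits of TFIID and SAGA. Taf9b, on chromosome X at 106206883 to 106221158, stood at 296 and 259 FPKM in MII oocytes against 191 and 171 FPKM in 2-cell controls, and was listed at 0 in all 4 libraries of 4-cell embryos (adjusted p = 3.9e-05 between control stages). Taf9 was far lower in oocytes and 2-cell controls, at 0.968 and 0.986 FPKM in the one and 1.93 and 6.65 FPKM in the other, and stood at 0.0359 and 0.0333 FPKM in 4-cell controls, a change of -2.19 (SE 0.45, adjusted p = 0.00898). Thus both paralogs fell, Taf9b under all 19 alternatives and Taf9 under all but the fit of only these groups (adjusted p = 0.0826). Taf9 shares exons on its own strand with Ak6, so its low values may not be its own. Taf12, another histone-fold subunit, fell from 17.7 and 16.5 to 5.39 and 1.99 FPKM (-2.05, SE 0.47, adjusted p = 0.0135), a call lost in the fit of only these groups and without replicate 1 of the 2-cell controls (adjusted p up to 0.0645). Taf6, the partner of Taf9, fell from 1.44 and 5.25 to 0.0427 and 0.246 FPKM (-1.78, SE 0.49, adjusted p = 0.0281). That call was lost with no filter on low values, in the fit of only these groups, and without replicate 2 of the 2-cell controls or either 4-cell control library (adjusted p up to 0.119). Its SAGA paralog Taf6l stood at 1.23 and 5.28 FPKM in 2-cell and 3.28 and 11.2 FPKM in 4-cell controls (adjusted p = 0.387). No TAF of TFIID or SAGA rose at this step, beside 21.1% of all genes tested, and none did under the 3 scalings. 4 of 13 fell, beside 17.5% of all genes tested, and 9 were not called, of which Taf7 fell under each of these scalings.

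10 further genes were called in no comparison, though Med4, Med6, Med17, Med19, Med29, Gtf2h2 and Gtf2h4 were called between control stages under 1 or more alternatives. Their levels over the 10 libraries spanned 1.58 to 130.3 FPKM for Med17, 2.01 to 221 FPKM for Med6, 2.08 to 77.4 FPKM for Med4, 12.0 to 48.6 FPKM for Med19, 0 to 62.3 FPKM for Med29 and 2.18 to 160 FPKM for Taf11. They spanned 0 to 10.6 FPKM for Taf1, 0 to 5.79 FPKM for Taf10, 0 to 14.2 FPKM for Gtf2h2 and 0.112 to 5.70 FPKM for Gtf2h4. Exons of a gene on the opposite strand overlap those of Polr2b, Polr2f, Polr2h, Polr2i, Polr2j, Med7, Med10, Med13, Med13l, Med15, Med19, Med20, Med21, Med26, Med27, Med29, Med31, Gtf2ird1, Gtf2ird2, Taf1c, Taf1d, Taf3, Taf4a, Taf5, Taf6, Taf6l, Taf10 and Taf11, and the values of these genes are uncertain to that extent.

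The other paralog pairs gave no call between the 2-cell and 4-cell controls. Taf5 was above 0 in 2 libraries, with 18.4 FPKM in replicate 2 of the oocytes and 14.0 FPKM in replicate 2 of the 4-cell controls (adjusted p = 0.366). Its SAGA paralog Taf5l was above 0 in 1 library, replicate 1 of the 4-cell controls, with 23.4 FPKM. Taf7 stood at 34.2 and 52.8 FPKM in 2-cell and 21.8 and 17.5 FPKM in 4-cell controls (adjusted p = 0.0717), whereas its germ cell paralog Taf7l was listed at 0 throughout. Taf4a was at most 0.0854 FPKM. Gtf2a1 stood at 71.5 and 13.7 FPKM in 2-cell controls and 15.0 and 0.797 FPKM in 4-cell controls, too far apart within groups for a call (adjusted p = 0.204).

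The stretches upstream of Polr2m and Taf9b are shown because these genes had the smallest p-values in each direction at this step. They are the 250 bases before the RefSeq start on GRCm38.p6, 5′ to 3′ on the strand of the gene, at chr9:71485984-71486233 (minus strand) and chrX:106221159-106221408 (minus strand). Capitals mark the GC box GGGCGG, the binding motif of Sp1-type factors, or its reverse complement CCGCCC. It begins 27 bases before the start of Polr2m, and 167, 120, 84, 56 and 35 bases before that of Taf9b, whose window is 66.8% G and C against 46.8% for Polr2m.
Polr2m: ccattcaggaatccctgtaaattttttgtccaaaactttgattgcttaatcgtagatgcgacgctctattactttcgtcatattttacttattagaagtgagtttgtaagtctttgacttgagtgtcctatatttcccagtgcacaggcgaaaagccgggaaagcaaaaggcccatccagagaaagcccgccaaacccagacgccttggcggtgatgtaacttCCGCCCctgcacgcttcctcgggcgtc
Taf9b: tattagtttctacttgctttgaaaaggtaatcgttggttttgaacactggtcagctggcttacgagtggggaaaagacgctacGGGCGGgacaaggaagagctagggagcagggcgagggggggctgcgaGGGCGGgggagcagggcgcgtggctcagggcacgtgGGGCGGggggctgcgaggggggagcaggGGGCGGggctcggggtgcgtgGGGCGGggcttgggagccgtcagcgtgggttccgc
Such windows could be matched for 69 of the 78 rows and 27025 genes in all. Where a gene had several, the window nearest the annotated 5′ end was taken for the rows described here. For all genes the first listed was taken, and these were not limited to genes expressed here. The 2 sets of shares are thus not fully alike. On either strand, and counting overlapping motifs separately, GGGCGG was found in 65.2% of the windows described here and 32.9% of all windows. The ETS core CCGGAAG was found in 24.6% and 7.05%, TATAAA in 13.0% and 13.0%, the YY1 core AAGATGGC in 2.9% and 1.59%, and the NRF1 palindrome in 0 and 0.781%. The median G and C content was 60.4% against 52.0%. These shares are descriptions of letters, with no test and no measure of binding.

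Among the 22 Mediator genes, 4 rose and 5 fell at the 2-cell to 4-cell step, where 21.1% and 17.5% of all genes did. Head subunits Med20, Med8 and Med11 rose. Med20 returned from 0 and 0.0277 to 16.5 and 47.6 FPKM (4.85, SE 0.61, adjusted p = 0.0012). Med8, which docks Med20 to the head, rose from 0.437 and 0.608 to 13.4 and 19.6 FPKM (3.50, SE 0.37, adjusted p = 0.000601). Both rises held under all 19 alternatives. Med11 rose from 0.610 and 1.64 to 3.80 and 5.36 FPKM (1.42, SE 0.40, adjusted p = 0.0289), and this was lost when libraries were scaled to the same total or by quantiles, in the fit of only these groups, and without replicate 1 of the 2-cell or replicate 2 of the 4-cell controls (adjusted p up to 0.121). The middle subunit Med9 rose from 0.326 and 1.22 to 8.65 and 2.74 FPKM (1.81, SE 0.53, adjusted p = 0.0349), but was called under 9 of 19 alternatives and, among others, not without replicate 1 of the 4-cell controls, either 2-cell control or either oocyte library (adjusted p up to 0.158).

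Med30 and Med28, head subunits found in animals and not in yeast, fell. Med30, on chromosome 15 at 52712408 to 52730564, had the highest level of all these genes in oocytes. It stood at 1272 and 1483 FPKM there, 589 and 458 FPKM in 2-cell controls and 8.81 and 7.25 FPKM in 4-cell controls, in steps that did not overlap, and the change between the embryo stages was -5.85 (SE 0.61, adjusted p = 0.000605). Med28 went from 157 and 167 to 18.3 and 15.4 FPKM (-3.19, SE 0.30, adjusted p = 0.000408). Med15, the tail subunit through which many activators contact Mediator, lies on chromosome 16 at 17651208 to 17732891. It had 163 and 101 FPKM in MII oocytes against 105 and 73.7 FPKM in 2-cell controls, and was listed at 0 in all 4-cell libraries (adjusted p = 8.29e-05). Med21, a hinge subunit of the middle module, fell from 125 and 161 to 24.6 and 29.1 FPKM (-2.37, SE 0.44, adjusted p = 0.00629). These 4 falls held under all 19 alternatives. Med1, the target of nuclear receptors, fell from 42.4 and 28.3 to 3.38 and 4.95 FPKM (-2.81, SE 0.69, adjusted p = 0.0178), a call lost without any 1 of the 4 libraries compared (adjusted p up to 0.0905). Med14, the backbone of the complex, stayed at or below 2.71 FPKM in all libraries, and Med23 and Med26 stayed within 2.91 to 7.91 FPKM and 11.1 to 36.9 FPKM.

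Both subunits of TFIIF, which keeps the polymerase in place at the promoter, rose to the 4-cell stage. Gtf2f1, its large subunit, had 3.75 and 3.74 FPKM in MII oocytes, 60.2 and 9.99 FPKM in 2-cell controls and 197 and 209 FPKM in 4-cell controls. The 2-cell replicates were far apart, the rise was 2.97 (SE 0.93, adjusted p = 0.0428), and it was called under 5 of 19 alternatives, failing among others under all 3 scalings, without either oocyte, 4-cell control or 4-cell Ago2 kd library, and without replicate 2 of the 2-cell controls (adjusted p up to 0.19). Gtf2f2, its small subunit, was listed at 0 in all oocyte and 2-cell libraries and had 101 and 144 FPKM in 4-cell controls (adjusted p = 0.0345). It was called under 10 of 19 alternatives, and lost with no filter on low values or without any 1 library of the oocytes, 2-cell embryos or 4-cell controls (adjusted p up to 0.128). Gtf2h3 of TFIIH rose from 0.949 and 0.00365 to 15.7 and 17.2 FPKM (3.64, SE 0.71, adjusted p = 0.00755), under every alternative except a pseudocount of 0.1 (adjusted p = 0.0559). Gtf2a2 fell a second time, from 78.9 and 56.9 to 10.2 and 12.8 FPKM (-2.45, SE 0.32, adjusted p = 0.00139), under all 19 alternatives. Gtf2e1 and Gtf2e2, the subunits of TFIIE, were not called, with 4-cell levels of 24.9 and 6.71 FPKM for the one and 92.9 and 70.0 FPKM for the other. Gtf2b stood at 16.4 and 9.62 FPKM (adjusted p = 0.222). In SL1, Taf1a recovered from 15.0 and 24.1 to 62.2 and 101 FPKM (2.00, SE 0.37, adjusted p = 0.00602), also under all 19.

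Of the genes that had fallen to the 2-cell stage, Med27, Taf8, Taf13, Med10 and Med22 stood higher at the 4-cell stage without a call. Med27 stood at 149 and 113 FPKM in 4-cell controls against 52.3 and 104 FPKM in 2-cell controls (adjusted p = 0.11). Taf8 stood at 15.4 and 21.5 FPKM in 4-cell controls (adjusted p = 0.0582 against the 2-cell stage), Taf13 at 86.6 and 90.9 FPKM (adjusted p = 0.0974), Med10 at 488 and 230.5 FPKM (adjusted p = 0.0717) and Med22 at 10.9 and 31.6 FPKM (adjusted p = 0.127). Their 4-cell controls lay above both 2-cell controls, Taf8 passed the test without either 4-cell Ago2 kd library and Med10 without replicate 2 of the 4-cell controls. Gtf2a1l and Taf7 stood no higher than at the 2-cell stage, and Gtf2a2 fell again.

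Over both steps, 1 gene was called higher at each (Polr2b), 1 lower at each (Gtf2a2) and 3 lower and then higher (Med11, Med20 and Taf1a). The 2-cell control libraries enter both steps and the 2-cell test of Ago2 kd, so these tests are not independent. A low value there enters both a fall and a later rise. 2 rose only to the 2-cell stage and 7 fell only to the 2-cell stage, 6 rose and 10 fell only to the 4-cell stage by these calls, and 33 passed neither test. These joint patterns were not counted over all genes tested, so the counts do not set these genes apart from others. An mRNA counted as maternal where the oocytes averaged over 2 FPKM, and these were sorted into degradation clusters by the change of the log2(mean FPKM + 1) at each step. They comprised 48 of the 78 rows. Cluster I (a fall of more than 1 to the 2-cell stage, then a change of less than 1) held 7 of the 48 (14.6%, against 22.8% of all 4825 maternal genes). Cluster II (a change of at most 1, then a fall of more than 1) held 8 (16.7% against 18.8%) and included Taf9b, Med15, Med28 and Polr2g. Cluster III (a fall of more than 1 at both steps) held 7 (14.6% against 14.4%) and included Gtf2a1l, Gtf2a2, Gtf2b, Med21, Med30 and Taf3. The other 26 (54.2% against 44.0%) were in no cluster. Cluster I fell to 4 without replicate 2 of the oocytes, and cluster III to 4 without replicate 2 of the 2-cell controls.

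**Figure D3:**
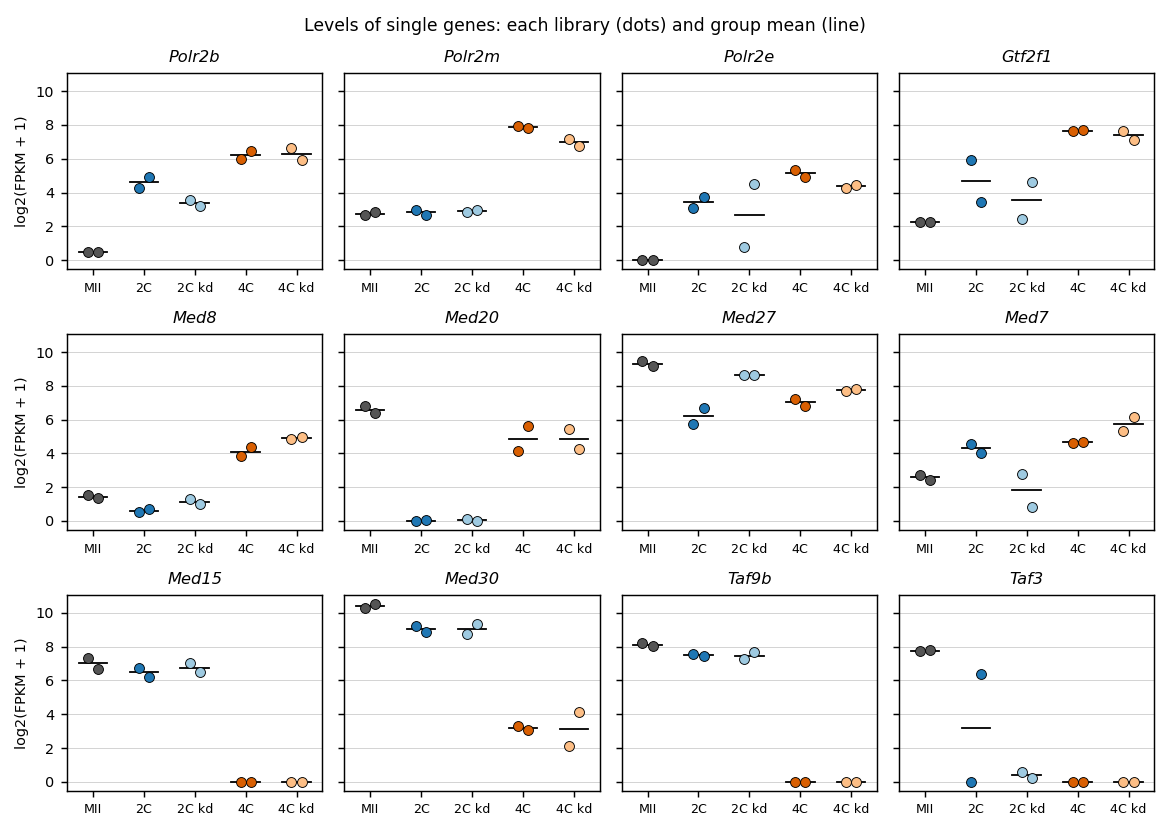
Level of 12 genes in every library, as log2(FPKM + 1); dots are libraries and lines group means, for MII oocytes, 2-cell (2C) and 4-cell (4C) embryos, control or Ago2 kd. Polr2m steps up and Taf9b, Med15 and Med30 step down between the 2-cell and the 4-cell stage in control and Ago2 kd embryos alike, and the 2-cell Ago2 kd libraries of Med27 lie above both 2-cell controls.

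Ago2 kd left nearly all of these mRNAs without a call at the 2-cell stage. The Ago2 mRNA was not analysed here, so the extent of the knockdown in these libraries was not checked. 1 of 63 rose (0.332% of all genes tested did) and 0 fell (0.218% of all genes). At an unadjusted p below 0.05, 1 was higher (2.96% of all genes) and 3 lower (3.0% of all genes). The median change was -0.0036, against 0 over all genes tested. The kd libraries lay above both controls for 4 genes (14.4% of all genes) and below them for 11 (14.7% of all genes). The riser was Med27, on chromosome 2 at 29346819 to 29524793. It had 694 and 575 FPKM in MII oocytes, 52.3 and 104 FPKM in 2-cell controls and 402 and 394 FPKM after Ago2 kd. The kd libraries lay between the oocytes and the controls, nearer to the oocytes, and the change from control was 2.42 (SE 0.35, adjusted p = 0.0443). It was called under 5 of 19 alternatives and over all of them its change lay between 1.93 and 2.91 with an adjusted p between 0.0223 and 0.416. It was not called without any 1 library other than replicate 2 of the 2-cell controls, nor with a replicate block (adjusted p = 0.112). Among the alternatives, the fit of only the groups compared called no gene at all after Ago2 kd. The 2-cell controls also enter the fall of Med27 from oocytes, so those tests are not independent. At the 4-cell stage Med27 stood at 149 and 113 FPKM in controls and 206 and 224 FPKM after Ago2 kd (adjusted p = 0.397).

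The 3 genes that were lower only by an unadjusted p were Taf9, Med7 and Polr2b. Med7, which forms the hinge of the middle module with Med21, had 22.9 and 15.3 FPKM in 2-cell controls and 5.82 and 0.796 FPKM after Ago2 kd, with a difference of -2.50 (SE 0.66, adjusted p = 0.329). Taf9 had 1.93 and 6.65 FPKM in controls and was listed at 0 in both kd libraries (adjusted p = 0.147); without replicate 1 of the controls it passed the test (adjusted p = 0.0204), as did Taf3. Polr2b had 18.7 and 29.6 FPKM in controls and 10.7 and 8.03 FPKM after Ago2 kd, with a difference of -1.25 (SE 0.42, adjusted p = 0.597). In each case both kd libraries lay below both controls, which their choice by p-value favours. The sum of the 5 markers of the 2-cell embryo was also lower after Ago2 kd, at 321 and 458 FPKM, than in the controls. The markers did not move together. Tcstv3 and Usp17la lay below both controls, and Zfp352 and Zscan4d overlapped with them. Tcstv1 lay above both, at 90.9 and 69.5 FPKM against 56.6 and 62.1 FPKM. The sum of the 8 oocyte markers was 1702 and 1352 FPKM in 2-cell controls and 1150 and 1328 FPKM after Ago2 kd. The part of such differences in these values was not tested.

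At the 4-cell stage none of the 63 passed the adjusted test after Ago2 kd, where 1.23% of all genes rose and 2.77% fell by limma. At an unadjusted p below 0.05, 8 were higher (7.37% of all genes) and 2 lower (8.07% of all genes). The median change was 0.04, against 0 over all genes tested. The kd libraries lay above both controls for 19 genes (20.1% of all genes) and below for 4 (16.9% of all genes). The 8 higher genes were Polr2d, Polr2f, Polr2l, Med11, Med21, Med31, Gtf2a2 and Taf7, with adjusted p-values from 0.169 to 0.318. Polr2f, a subunit shared by the 3 polymerases, had 14.2 and 10.3 FPKM in controls and 35.6 and 66.5 FPKM after Ago2 kd, with a difference of 1.92 (SE 0.65, adjusted p = 0.206). Polr2d had 26.4 and 29.9 FPKM in controls and 62.7 and 99.9 FPKM after Ago2 kd, with a difference of 1.46 (SE 0.47, adjusted p = 0.185). Med21 had 24.6 and 29.1 FPKM in controls and 66.8 and 79.2 FPKM after Ago2 kd, with a difference of 1.41 (SE 0.44, adjusted p = 0.175). Med31, a middle subunit, had 1.18 and 3.84 FPKM in controls and 7.77 and 14.8 FPKM after it, with a difference of 1.86 (SE 0.57, adjusted p = 0.169). After Ago2 kd Med11 had 12.0 and 11.3 FPKM against 3.80 and 5.36 FPKM in controls (adjusted p = 0.2), and Gtf2a2 20.1 and 25.9 FPKM against 10.2 and 12.8 FPKM (adjusted p = 0.211). Taf7 had 31.5 and 50.8 FPKM against 21.8 and 17.5 FPKM (adjusted p = 0.299), and Polr2l 10.3 and 19.3 FPKM against 7.40 and 5.25 FPKM (adjusted p = 0.318). In all 8 the lower kd library was above the higher control, which their choice by p-value favours, so it is no further support. The sum of the 8 oocyte markers was higher in these kd libraries too, at 36.9 and 21.1 FPKM against 10.8 and 4.56 FPKM in controls. It rested mainly on Oosp1, at 10.35 and 17.0 FPKM against 5.33 and 3.17 FPKM in controls. Zp3 added 23.5 FPKM in replicate 1 of the kd embryos and was at 0 in the other 4-cell libraries. Oosp1 was the only marker above both controls in both kd libraries. The part of this sum in these values was not tested.

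The 2 lower genes by the unadjusted p were Gtf2h3 and Polr2m. The 4-cell control libraries also enter the step from the 2-cell stage, so the tests are not independent. Gtf2h3 had 15.7 and 17.2 FPKM in 4-cell controls and 1.78 and 1.59 FPKM after Ago2 kd, with a difference of -2.70 (SE 0.71, adjusted p = 0.109). Polr2m had 244 and 226 FPKM in controls and 146 and 108 FPKM after Ago2 kd, with a difference of -0.90 (SE 0.31, adjusted p = 0.219). After Ago2 kd Polr2m still stood far above the 2-cell libraries, of which the highest held 6.96 FPKM.

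6 genes were near 0 in replicate 1 of the 4-cell Ago2 kd embryos and high in replicate 2. Polr2h had 0 and 63.8 FPKM, Gtf2f2 0 and 174 FPKM, Gtf2h1 0.212 and 93.5 FPKM, Gtf2h5 0.162 and 24.8 FPKM, Gtf2b 0.156 and 18.8 FPKM and Gtf2a1 0.0734 and 10.8 FPKM. Replicate 1 is the library with the largest share of genes lost between replicates, and its part in these values was not tested. Without replicate 1, Polr2h alone passed the test and was higher after Ago2 kd. Without replicate 2, Gtf2b, Gtf2f2, Gtf2h5, Polr2h and Polr2i passed it and were lower, so Polr2h turned its direction with the library left out. In such fits the lone library is assumed to vary like those of the other groups, and without replicate 2 it is the one with the most genes lost. Over all genes tested, too, falls were called more often in that fit than with both libraries. Without replicate 1 of the 4-cell controls, Med17 passed the test and was higher after Ago2 kd, at 46.1 and 1.58 FPKM in controls and 14.9 and 17.4 FPKM in kd embryos.

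**Figure D4:**
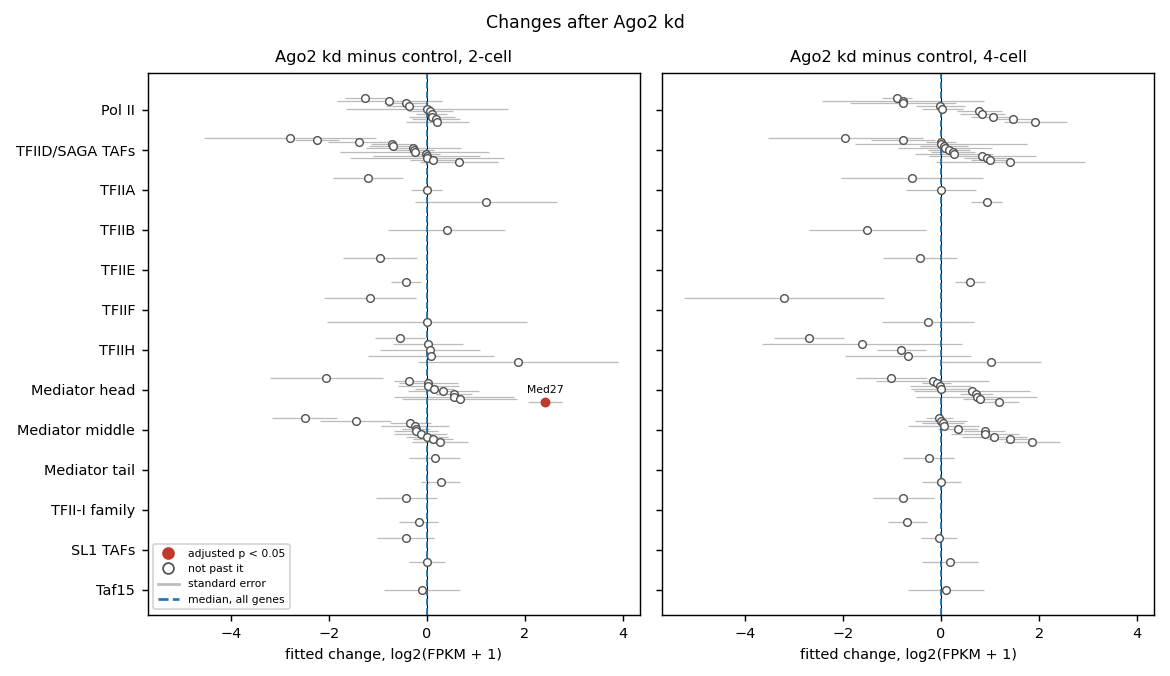
Fitted change of each of the 63 genes after Ago2 kd by complex, on the log2(FPKM + 1) scale with its standard error, in 2-cell embryos (left) and 4-cell embryos (right); filled points passed an adjusted p of 0.05 and the dashed line is the median of all genes tested. Med27 in 2-cell embryos is the single filled point, and wide bars mark genes whose replicates disagree.

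The effect of Ago2 kd at the 4-cell stage was also set against that at the 2-cell stage by the interaction term of the model. 0 of 63 differed after adjustment (2.28% of all genes tested did, by limma) and 7 at an unadjusted p below 0.05 (13.4% of all genes). Med7 had the largest of these differences, 3.58 (SE 0.94, adjusted p = 0.139), as it was lower in kd embryos at the 2-cell stage and stood at 23.5 and 24.6 FPKM in controls and 38.3 and 70.8 FPKM in kd embryos at the 4-cell stage. Without replicate 1 of the 2-cell Ago2 kd embryos Med7 passed the test (adjusted p = 0.0365). Taf9 differed by 2.48 (SE 0.64, adjusted p = 0.132), Med27 by -1.70 (SE 0.49, adjusted p = 0.179), Gtf2h3 by -2.72 (SE 1.01, adjusted p = 0.303), Polr2d by 1.83 (SE 0.67, adjusted p = 0.296), Med21 by 1.63 (SE 0.63, adjusted p = 0.32) and Polr2l by 1.49 (SE 0.62, adjusted p = 0.371). Taf9 and Taf3 passed the test without replicate 1 of the 2-cell controls, and Gtf2b, Gtf2f2 and Polr2h without replicate 2 of the 4-cell Ago2 kd embryos.

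Genes that work with this machinery were read from a list of 51, of which 42 had a row and 31 were in the model. They comprise the TBP family and its regulators, partners of TFIIH and of the Mediator kinase, pausing and elongation factors, and phosphatases and assembly factors of the Pol II tail. From oocyte to 2-cell embryo 3 rose and 2 fell (6.54% and 14.2% of all genes tested), from the 2-cell to the 4-cell stage 9 rose and 2 fell (21.1% and 17.5%), and their medians were 0.0 and 1.17, against -0.06 and 0.24 over all genes tested. After Ago2 kd none was called at the 2-cell stage, and 2 were lower at the 4-cell stage, where 2.77% of all genes tested were. The genes named from here on, apart from Tbp and Tbpl1, were chosen after their values were seen. Tbp, the TATA-binding protein itself, stood at 31.6 and 21.9 FPKM in MII oocytes, 33.3 and 5.94 FPKM in 2-cell controls and 6.14 and 3.97 FPKM in 4-cell controls, and was called in no comparison. Its relative Tbpl1 stood at 41.4 and 44.7 FPKM, 30.7 and 28.8 FPKM and then 23.6 and 12.1 FPKM, and was not called either. Dr1, a repressor that binds TBP, rose from 4.90 and 4.70 FPKM in oocytes to 42.2 and 82.5 FPKM in 2-cell controls (3.37, SE 0.54, adjusted p = 0.00582).

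Of the 16 pausing and elongation factors, 6 rose to the 4-cell stage and none fell, beside 21.1% and 17.5% of all genes tested. They were Cdk9, Ell2, Leo1, the NELF pausing subunits Nelfcd and Nelfe, and Ccnt1, which was called under 10 of 19 alternatives. Cdk9, the kinase of P-TEFb that releases paused Pol II, had 1.32 and 2.25 FPKM in 2-cell controls and 45.2 and 82.6 FPKM in 4-cell controls, a rise of 4.50 (SE 0.53, adjusted p = 0.001). Ell2, a subunit of the super elongation complex, was listed at 0 in oocytes and 2-cell controls and had 122 and 90.8 FPKM in 4-cell controls (adjusted p = 0.000413). Leo1, of the PAF complex, went down and up again, from 109.6 and 131 FPKM in oocytes to 4.31 and 6.90 FPKM in 2-cell controls and 75.4 and 68.5 FPKM in 4-cell controls, and passed the test at both steps, though not with a pseudocount of 0.1 or with libraries scaled to the same total (adjusted p up to 0.12 and 0.0823). Both steps use the same 2-cell controls. Cdk9 and Ctdp1 were called lower after Ago2 kd in 4-cell embryos, a comparison that shares its control libraries with the step from the 2-cell stage. Cdk9 had 13.3 and 5.98 FPKM after Ago2 kd, a change of -2.64 (SE 0.53, adjusted p = 0.0468), but it was called under 2 of 19 alternatives (adjusted p up to 0.326). The call was lost without any 1 library other than replicate 1 of the 4-cell Ago2 kd embryos. Ctdp1, the phosphatase that resets the Pol II tail, had 24.1 and 39.2 FPKM in 4-cell controls and was listed at 0 in both 4-cell Ago2 kd libraries (adjusted p = 0.000734), a call lost only in the fit of these groups alone (adjusted p = 0.215). That fit called no gene at all. For comparison, RNA polymerases I and III had 4 and 5 subunit genes in the model. From oocyte to 2-cell embryo 1 and 2 of them rose and none fell, beside 6.54% and 14.2% of all genes tested. From the 2-cell to the 4-cell stage no polymerase I gene was called, and 3 polymerase III genes rose and 1 fell. Of all genes tested, 21.1% rose and 17.5% fell there. Polr3k of polymerase III was lower after Ago2 kd in 2-cell embryos, at 0.307 and 0.102 FPKM against 19.7 and 23.3 FPKM in controls (-4.22, SE 0.33, adjusted p = 0.00649). This call was lost only in the fit of these groups alone (adjusted p = 0.243), which called no gene at all.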

How the data were processed

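The authors deposited FPKM, 1 value per gene name and library. They trimmed reads with Trim Galore, aligned them with HISAT2 2.1.0 to mm10 and estimated FPKM with StringTie; how transcripts were reduced to 1 row per name, and whether strand was used, are not given in the sources used here. Depth is unknown and numbers of reads could not be recovered. Here log2(FPKM + 1) was fitted with limma 3.58.1 in R 4.3.3, with 5 group means, an intensity trend and 5 residual degrees of freedom, over the 8726 genes that reached 1 FPKM in 2 or more libraries. Fold changes on this scale understate those of low genes. Two-sided p-values were adjusted by Benjamini-Hochberg. Since the labels do not say that replicates came from separate matings or days, p-values measure only the spread between these libraries.

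The members, lists and tests were chosen with earlier results of these data known. By rule, the text names members called with groups that do not overlap, the largest changes first and up to 25 a comparison, or else the smallest p-values up to 10, and Polr2a, Polr2b, the paralog pairs and Tbp; other members were named after their values were seen. Groups that do not overlap thus largely follow from the choice of these genes and are no further support for them. The 19 alternatives are a pseudocount of 0.1, 2 other filters, 3 scalings, a replicate block, only the groups compared, no variance trend, and each of 10 libraries left out, where a lone library is assumed to vary like the other groups. Those for genes outside the members were chosen after seeing the data. The fit was tested on simulated data. Gene positions are from GENCODE M21 (GRCm38), in which all 78 names matched, and upstream windows from RefSeq (GRCm38.p6). Ago2 itself was not analysed here.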

Additional observations from a re-analysis of the deposited data

Results flagged for a closer look

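Outside the members, 31 listed genes that work with this machinery and 4 polymerase I and 5 polymerase III subunit genes were tested. Of these, 2 had an effect of Ago2 kd that differed between the 4-cell and the 2-cell stage by the interaction term of limma. That was so for 2.28% of all genes tested. For Ctdp1, the phosphatase of the Pol II tail, the fitted difference was -5.41 on the log2(FPKM + 1) scale (SE 0.54, adjusted p = 0.00469), from 0.787 and 0 FPKM in 2-cell Ago2 kd embryos against 0 in both controls, and 0 in both 4-cell Ago2 kd libraries against 24.1 and 39.2 FPKM in controls. With groups listed at 0, this value is no fold. For Polr3k, a subunit of RNA polymerase III, it was 4.04 (SE 0.47, adjusted p = 0.0079), from 0.307 and 0.102 FPKM after Ago2 kd at the 2-cell stage against 19.7 and 23.3 FPKM in controls, and 0.0810 and 0.0782 FPKM after Ago2 kd at the 4-cell stage against 0.279 and 0.165 FPKM in controls. Each difference rests on 1 stage, since Ctdp1 was at 0 in 2-cell controls and Polr3k near 0 in 4-cell controls, where little or no fall could be measured.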

How the results depend on the processing

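From oocyte to 2-cell embryo, 3 members rose and 11 fell. The rises were 5 with a pseudocount of 0.1, 11 with libraries scaled to the same total, 5 with the same median, 6 after quantile normalization and 5 in the fit of only the groups compared; the falls were 6 and 7 with the same total and quantiles. Over all genes tested the rises were 571 in the main fit and, in the same order, 719, 1054, 765, 707 and 666. Their falls were 1240 in the main fit, and 590 and 782 with the same total and quantiles. The median change of the members, -0.73, was -1.06 with the smaller pseudocount, -0.27 with no filter, 0.0 with the same total, -0.31 with the same median and -0.10 after quantile normalization. From the 2-cell to the 4-cell stage 10 rose, and 6 did so with the same total or quantiles; the median, 0.72, was 0.41 with no filter, 0.49 with the same total and 0.33 after quantile normalization. Over all genes tested 1841 rose at that step, and 1660 and 1523 with the same total and quantiles. By an unadjusted p 9 members were higher and 18 lower at the first step, 18 higher at the second, 3 lower after Ago2 kd in 2-cell embryos, 8 higher and 2 lower in 4-cell embryos, and 7 had an interaction. The 1 rise after Ago2 kd in 2-cell embryos was 0 with no filter, with a filter on the mean, with a replicate block, in the fit of only the groups compared and with no variance trend. Over all genes tested the rises there were 29, and 55, 13, 10, 0 and 16 in the same order. The cause of these changes was not tested.

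With each library left out in turn, the first step had 2 to 6 rises, 7 to 14 falls and a median of -0.83 to -0.66; the second had 7 to 14 rises, 8 to 12 falls and a median of 0.46 to 0.85. Ago2 kd had 0 to 1 rises, 0 to 2 falls and a median of -0.23 to 0.0061 in 2-cell embryos, 0 to 1 rises, 0 to 5 falls and a median of 0 to 0.52 in 4-cell embryos, and 0 to 3 interactions. The counts over all genes tested also moved with the library left out. Clusters I, II and III held 4 to 9, 6 to 9 and 4 to 8 members, and 24 to 29 were in none.

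Same-numbered libraries did not deviate together over genes (r of -0.029, 0.012, 0.092 and -0.093 over the 4 comparisons). The labels do not say whether they share a mating or day, and this check cannot decide it. The replicate block gave 4 rises and 12 falls to the 2-cell stage, 9 and 11 to the 4-cell stage, and 0 and 0 after Ago2 kd at both stages. Over all genes tested it gave 545 and 1157 to the 2-cell stage and 1745 and 1466 to the 4-cell stage. After Ago2 kd it gave 10 and 13 in 2-cell and 68 and 177 in 4-cell embryos.

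2 libraries a group and 5 residual degrees of freedom limit all tests, and the depth behind low values is unknown.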
